A study of Saccharomyces cerevisiae with 12 samples.

Results

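The genes examined here encode the machinery that copies the budding yeast genome, namely the origin recognition complex, the MCM helicase and its activators, the replicative polymerases, the sliding clamp and its loader, replication protein A (RPA) and 2 enzymes that finish the lagging strand. The 39 members were chosen by gene name, and each was read from its brightest probe set among those annotated to that gene alone. All 39 were measured, out of 5656 genes so represented on the arrays. Expression was followed over 12 Affymetrix YG-S98 arrays in 4 groups of 3, which were wildtype without treatment, wildtype with methyl methanesulfonate (MMS), anc1Δ without treatment and anc1Δ with MMS. All 4 groups share the MATa BY4741 background, with his3Δ1, leu2Δ0, met15Δ0 and ura3Δ0, and the anc1Δ groups lack in addition ANC1 (TAF14 in the array annotation), which encodes a subunit shared by several transcription and chromatin complexes. Cells were grown into log phase in rich medium, from 3 independent colonies of wildtype and 3 of anc1Δ per the methods, which do not say whether treated and untreated cultures shared colonies, and neither the labels nor the methods state how much MMS these cultures received or for how long. For the 3 treated wildtype arrays the title and the source name disagreed on the treatment, and for 3 anc1Δ arrays the description named the wildtype; the titles were followed.

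Replication is prepared in G1, when the origin recognition complex and Cdc6 load pairs of MCM rings onto origin DNA. At the start of S phase Cdc45 and the GINS complex join each ring to make the active helicase, polymerase alpha-primase lays primers, polymerase epsilon and polymerase delta extend the leading and lagging strands, clamps loaded by replication factor C hold the polymerases, and RPA coats the single strands between. Many of these genes are transcribed in late G1 under the MBF and SBF factors, and MMS, which methylates DNA bases, blocks forks and calls up the damage checkpoint.

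ANC1 itself was read at 285 ± 62.9 in untreated wildtype and 189 ± 12.4 in treated wildtype (mean intensity ± SD, n = 3 arrays), against 10.4 ± 4.67 and 10.2 ± 3.46 in the corresponding anc1Δ groups. The probe set for URA3, which the strain list gives as the marker of one anc1Δ strain while the methods for the RNA name an anc1::G418R strain, lay between 6.25 and 12.6 on all 12 arrays. In wildtype, MATa identity showed in MFA2, a pheromone gene of a cells, at 5000.4 ± 166 untreated, against 1101 ± 51.3 in untreated anc1Δ. Over the 4 groups, 3 of 4 alpha-cell genes, MF(ALPHA)1, MF(ALPHA)2 and STE3, had means of 12.4 to 39.4 and SAG1 lay at 74.2 to 214. All 6 genes specific to a cells were lower in anc1Δ in both conditions by the thresholds given below, against 12.4% and 18.4% of all genes. Their median change was -2.84 (log2) untreated, with a range of -3.77 to -2.18, and -2.87 with MMS. Median intensities over all probe sets were 114.7 to 119.8 in treated wildtype and 106.4 to 109.1 in untreated wildtype. In anc1Δ they were 104.0 to 105.2 untreated and 105.9 to 107.9 with MMS. Treated wildtype thus lay above every other group, and results with each array centred on its median are given below. Arrays of a group correlated at r = 0.988 to 0.997. The ratio of the actin signals at the 3′ and 5′ ends of the transcript, a measure of how complete the labelled RNA was, was 1.47 to 1.68 in untreated wildtype, 1.74 to 1.85 in untreated anc1Δ, 3.31 to 3.85 in treated wildtype and 3.43 to 3.998 in treated anc1Δ. It moved with every MMS response given here and, by less, with the untreated strain comparison, and its part in them was not tested. In whole cultures, fewer cells in S phase and less transcript per cell cannot be told apart.

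**Figure D1:**
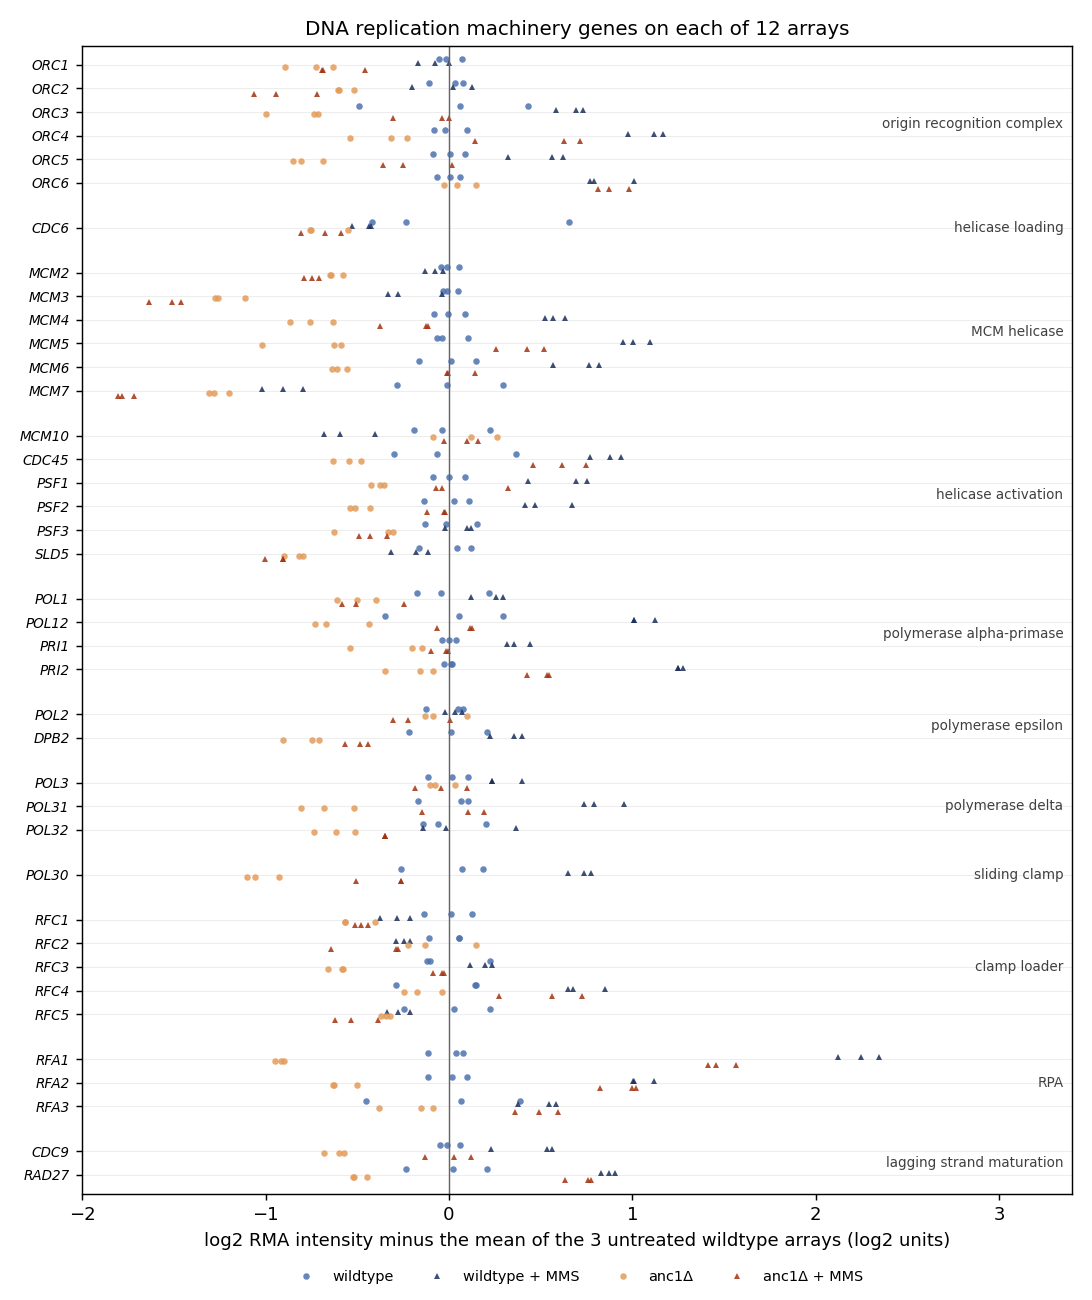
Log2 RMA intensity of each of the 39 replication genes on each of the 12 arrays, relative to the mean of the 3 untreated wildtype arrays, with genes grouped by role on the vertical axis. Untreated anc1Δ arrays (orange circles) lie mostly left of untreated wildtype (blue circles), and MMS arrays (triangles) lie mostly to the right of the untreated arrays of the same strain, with RFA1 farthest to the right.

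Over the 39 genes, the 4 groups stood at different levels. Relative to the mean of untreated wildtype, the median member lay at -0.11, 0.01 and 0.10 (log2 intensity) on the 3 untreated wildtype arrays and at 0.41, 0.43 and 0.32 on the treated ones. The untreated anc1Δ arrays lay at -0.57, -0.55 and -0.58, and the treated anc1Δ arrays at -0.03, -0.13 and -0.12. By group mean, 25 of the 39 members were lowest in untreated anc1Δ and highest in treated wildtype, a share not counted over all genes. The median of all genes moved less. It lay at -0.02, 0.02 and 0.01 on the untreated wildtype arrays and at 0.12, 0.08 and 0.05 on the treated ones. On each untreated anc1Δ array it was -0.10, against -0.07, -0.10 and -0.06 on the treated anc1Δ arrays.

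Without treatment, many replication genes stood lower in anc1Δ. Of the 39 members, 19 fell (48.7%) and 0 rose, where a call needed a Benjamini-Hochberg adjusted p under 0.05 from limma over all probe sets and a change of at least 1.5-fold. Over all 5656 genes, 12.4% were called lower and 11.1% higher. The median member changed by -0.59 (log2) against -0.10 for all genes. On the adjusted p alone 28 members were lower (27.5% of all genes), and in 32 the 3 anc1Δ arrays all lay below the 3 wildtype arrays (37.2% of all genes). The calls included all 6 MCM subunits, the clamp gene POL30, 3 of 6 origin recognition subunits, 2 of 3 RPA subunits and 7 other genes. Centring each array on its median left 12 members lower, since MCM2, MCM6, POL12, POL32, RFC3, RFA2 and CDC9 then fell short of 1.5-fold. A further quantile normalization left 17, with POL12, RFC3 and RFA2 short of 1.5-fold and CDC6 newly called (-0.76).

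With MMS in both strains the same direction was seen. Of the 39 members, 18 were lower in anc1Δ (46.2%) against 18.4% of all genes, and 1, MCM10, was higher against 10.9% of all genes. The median member differed by -0.55 and the median gene by -0.18. On the adjusted p alone 26 members were lower (40.6% of all genes), and in 32 the treated anc1Δ arrays all lay below the treated wildtype arrays (48.5% of all genes). The 2 strain comparisons take their means from different arrays, but the spread in the MMS comparison was estimated over all 12 arrays. Their overlap over all genes was not counted. Among the members 14 genes were called lower in both, which is 73.7% of the untreated list and 77.8% of the MMS list. These were ORC3, ORC5, all 6 MCM subunits, SLD5, POL12, DPB2, POL31, POL30 and RFA1. ORC1, POL32, RFC3, RFA2 and CDC9 were called in the untreated comparison alone and ORC2, ORC4, POL1 and PRI2 with MMS alone, but whether the strain difference itself changed with MMS was called for none of these 9, and passed the adjusted p alone for RFA2 and PRI2. Centring left 12 members lower with MMS, as ORC4, ORC5, MCM2, MCM5, MCM6 and POL1 then fell short of 1.5-fold. A further quantile normalization took ORC4, MCM2, MCM5 and MCM6 below it and left 16 lower, with CDC6 and POL32 newly called.

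**Figure D2:**
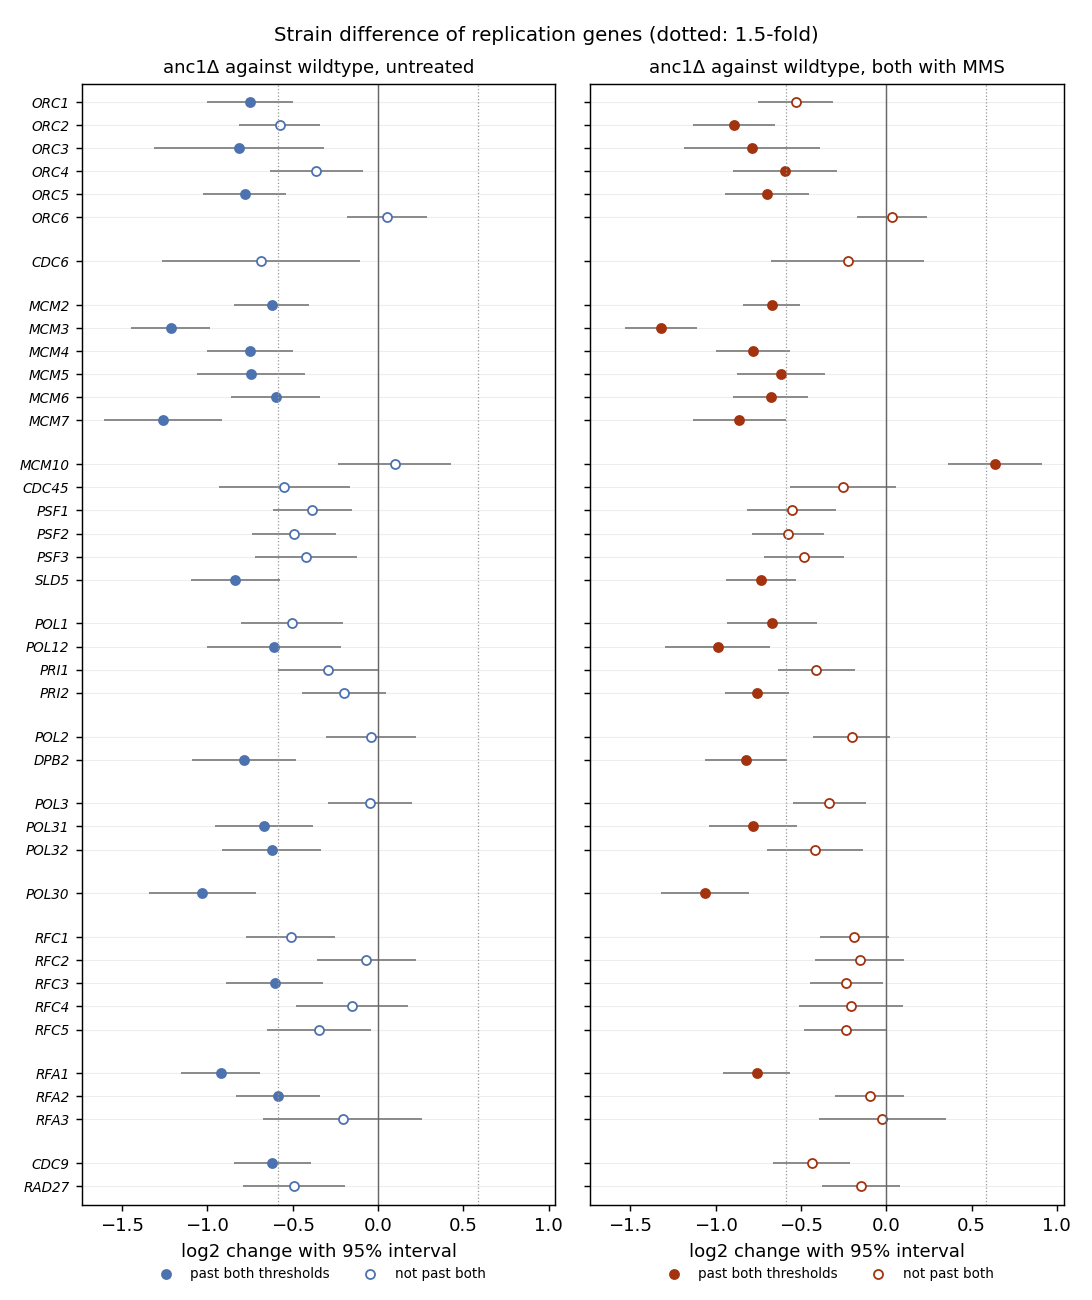
Log2 difference of anc1Δ from wildtype for each replication gene, untreated (left) and with MMS (right), with 95% confidence intervals from limma (n = 3 arrays per group). Filled points passed both thresholds and dotted lines mark 1.5-fold; all 6 MCM genes are filled and to the left in both panels, and MCM10 is the filled point to the right.

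MMS raised a subset of the machinery in each strain. In wildtype 15 members rose (38.5%) and 1, MCM7, fell, against 27.7% and 20.8% of all genes. The median member changed by 0.44 and the median gene by 0.08, and 23 members were higher and 4 lower on the adjusted p alone (41.2% and 32.2% of all genes). In 22 members the treated arrays all lay above the untreated ones (41.9% of all genes) and in 6 all below (32.7%). In anc1Δ 17 members rose (43.6%) and 0 fell, against 16.0% and 15.7% of all genes. There the median member changed by 0.46 and the median gene by -0.01, with 22 members higher and 4 lower on the adjusted p alone (29.3% and 29.6% of all genes), 24 whose treated arrays all lay above the untreated ones (34.6%) and 7 whose treated arrays all lay below (36.1%). The 2 responses take their means from different arrays but share 1 estimate of the spread. Their overlap over all genes was not counted. Among the members 14 genes rose in both, 93.3% of the wildtype list and 82.4% of the anc1Δ list. They were ORC3, ORC4, ORC6, MCM5, MCM6, CDC45, POL12, PRI2, POL31, POL30, RFC4, RFA1, RFA2 and RAD27. PSF1 was called in wildtype alone and ORC5, RFA3 and CDC9 in anc1Δ alone, and none of these 4 differed between the strains by the test of that difference. In 20 members neither response was called, a share not counted over all genes. After centring or the further quantile normalization the wildtype rises of ORC3 and PSF1 were not called, nor in anc1Δ that of ORC5 after centring and that of CDC9 after the quantile normalization.

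The response to MMS was compared between the strains directly, as the anc1Δ response minus the wildtype response. For 0 members did this difference pass both thresholds, where 9.58% of all genes were called higher and 14.2% lower. On the adjusted p alone MCM10 and RFA2 responded more in the positive direction in anc1Δ and PRI2 rose less there, and 7 members (17.9%) had an unadjusted p under 0.05, against 46.8% of all genes. The 95% interval of the difference lay within 1.5-fold in both directions for 23 members and within 2-fold for 38, the exception being CDC6. The median member's difference was -0.03 and the median gene's -0.08.

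**Figure D3:**
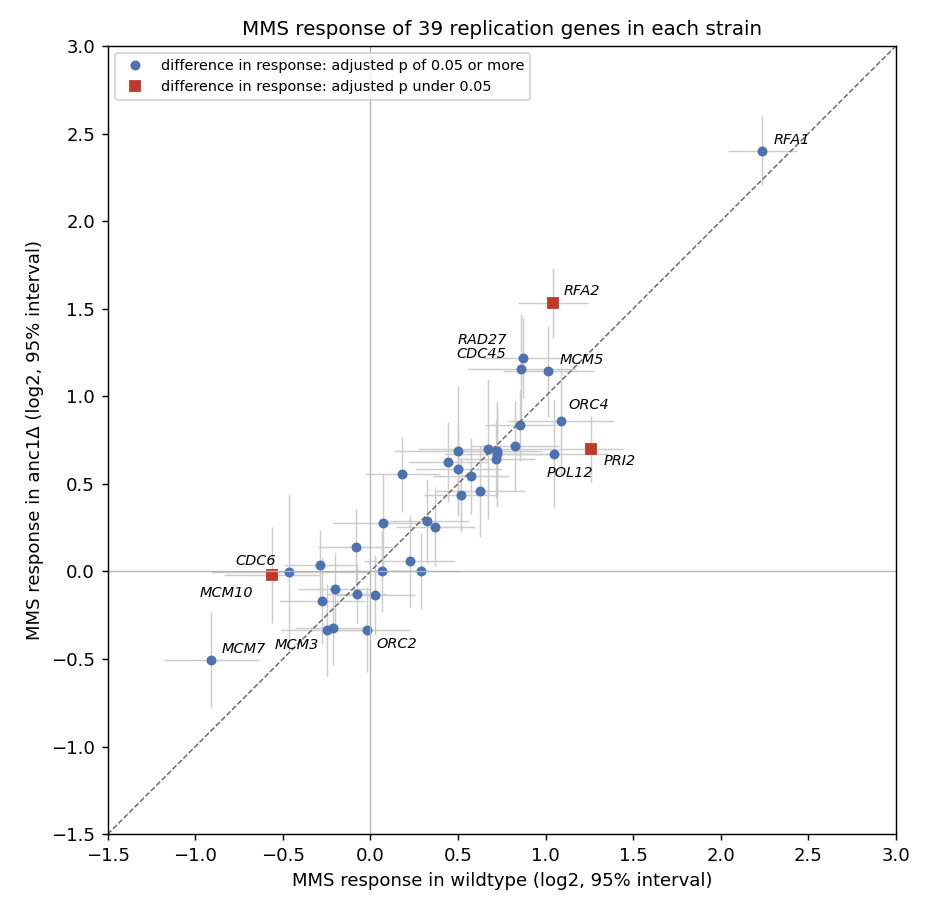
MMS response of each replication gene in anc1Δ (vertical axis) against that in wildtype (horizontal axis), in log2 with 95% intervals; the dashed line marks equal responses. RFA1 lies at the upper right, MCM7 at the lower left, and the 3 squares are the genes whose difference in response passed an adjusted p of 0.05, RFA2 above the line, PRI2 below it and MCM10 above it.

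The origin recognition complex marks each origin throughout the cell cycle. ORC1, its largest subunit and one of its ATPases, was read at 155, 169 and 159 in untreated wildtype and 97.4, 86.5 and 104 in untreated anc1Δ. The groups did not overlap, and the change was -0.75 ± 0.11 (log2 ± SE, adjusted p = 0.00125). ORC3 changed by -0.82 and ORC5 by -0.78, and both passed, although ORC3 missed the adjusted p without replicate 2 of untreated wildtype (0.0551) or of untreated anc1Δ (0.0581). ORC2 (-0.58) lay just under the fold limit, ORC4 changed by -0.36, and ORC6, the subunit outside the ring of the other 5, by 0.05. Not all subunits responded to MMS. ORC4, another subunit of the ATPase family, went from 146, 152 and 165 to 346, 334 and 302 in wildtype and from 106, 131 and 124 to 237, 169.9 and 252 in anc1Δ. Every treated array lay above every untreated one of its strain, and the rises were 1.09 and 0.86 (adjusted p = 1.5e-05 and 0.000229). ORC6 rose by 0.86 and 0.83, from 31.6 ± 1.36 to 57.4 ± 5.33 and from 32.9 ± 1.98 to 58.6 ± 3.51, and it was the one origin recognition gene called in neither strain comparison (95% intervals -0.18 to 0.29 untreated and -0.17 to 0.24 with MMS). ORC3 also rose in both strains (0.67 and 0.70, the first of which became 0.42 without replicate 1 of untreated wildtype and lost its call), while ORC1 changed by -0.08 and 0.14 and ORC2 by -0.02 and -0.33, none of which was called. ORC5 rose by 0.59 in anc1Δ, at the fold limit, and changed by 0.50 in wildtype. The first was 0.48 to 0.57 and not called without replicate 1 or 2 of untreated anc1Δ or replicate 1 of treated anc1Δ. With MMS in both strains ORC2, ORC3, ORC4 and ORC5 were lower in anc1Δ, with differences of -0.89, -0.79, -0.59 and -0.70, and ORC4 lost this call without replicate 1 or 2 of treated wildtype or replicate 2 of treated anc1Δ (-0.42 to -0.58).

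CDC6, which loads the MCM rings together with the origin complex, was close to the floor of the arrays. Its intensities were 14.4, 12.7 and 26.7 in untreated wildtype, 11.7, 12.6 and 12.5 in treated wildtype, 10.1, 11.6 and 10.02 in untreated anc1Δ and 9.71, 11.3 and 10.6 in treated anc1Δ. Replicate 3 of untreated wildtype stood apart from the other 11 arrays, and no comparison of CDC6 was called in the fits reported here. Some alternatives did call CDC6 lower. Its untreated strain difference was called with all 12 arrays fitted (-0.69, limma adjusted p = 0.0147) and after a further quantile normalization (-0.76).

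All 6 subunits of the MCM ring were lower in anc1Δ in both conditions, but with MMS in wildtype some rose and 1 fell. MCM3 had the largest strain difference of the 39 members with MMS, at 133, 135 and 141 in untreated wildtype, 63.2, 56.4 and 56.9 in untreated anc1Δ, 133, 112 and 108 in treated wildtype and 47.9, 43.9 and 49.5 in treated anc1Δ. No anc1Δ array reached any wildtype array in either condition, and the differences were -1.21 ± 0.10 untreated and -1.32 ± 0.10 with MMS (adjusted p = 7.6e-05 and 2.92e-07). MCM7 was 209, 253 and 313 in untreated wildtype against 105, 111 and 103 in anc1Δ, a difference of -1.26 ± 0.15 (adjusted p = 0.000456). MCM2, MCM4, MCM5 and MCM6 differed by -0.62, -0.75, -0.74 and -0.60 without treatment, and by -0.67, -0.78, -0.62 and -0.68 with MMS. All 12 of these strain differences of the 6 subunits passed both thresholds in the values as deposited. After centring, those of MCM2 and MCM6 without treatment and of MCM2, MCM5 and MCM6 with MMS fell short of 1.5-fold, the last 3 also after a further quantile normalization. That of MCM6 without treatment fell short of 1.5-fold without replicate 3 of wildtype (-0.53) or replicate 2 of anc1Δ (-0.58), and that of MCM5 with MMS without replicate 1 of wildtype (-0.58) or replicate 2 of anc1Δ (-0.54).

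The subunits of this one ring did not all move the same way with MMS. MCM5 rose from 112, 126 and 114 to 252, 235 and 227 in wildtype, a change of 1.02 (95% interval 0.76 to 1.28), and from 58.0, 78.3 and 76.1 to 158, 140.3 and 168 in anc1Δ, a change of 1.14 (0.88 to 1.40). MCM6 went from 93.0, 105 and 115 to 177, 184 and 154 in wildtype and from 70.8, 66.8 and 68.1 to 103, 103 and 115 in anc1Δ, rises of 0.72 and 0.64. The treated anc1Δ arrays of MCM5 lay above untreated wildtype and those of MCM6 within its range, and MCM4 changed by 0.57 and 0.55, past the adjusted p and just short of 1.5-fold. MCM2 (-0.08 and -0.13) and MCM3 (-0.22 and -0.32) were not called, though in anc1Δ MCM3 passed the adjusted p (0.0157) and its treated arrays all lay below its untreated ones. MCM7 fell in wildtype to 136, 146 and 126, by 0.91 (95% interval -1.18 to -0.64), and went to 72.9, 77.6 and 73.9 in anc1Δ, where its change of -0.51 passed the adjusted p (0.0046) but not the fold limit. MCM7 was thus the one member called lower after MMS, its treated arrays lay below its untreated arrays in both strains, and the intervals for MCM5 and MCM7 did not meet in either strain.

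**Figure D4:**
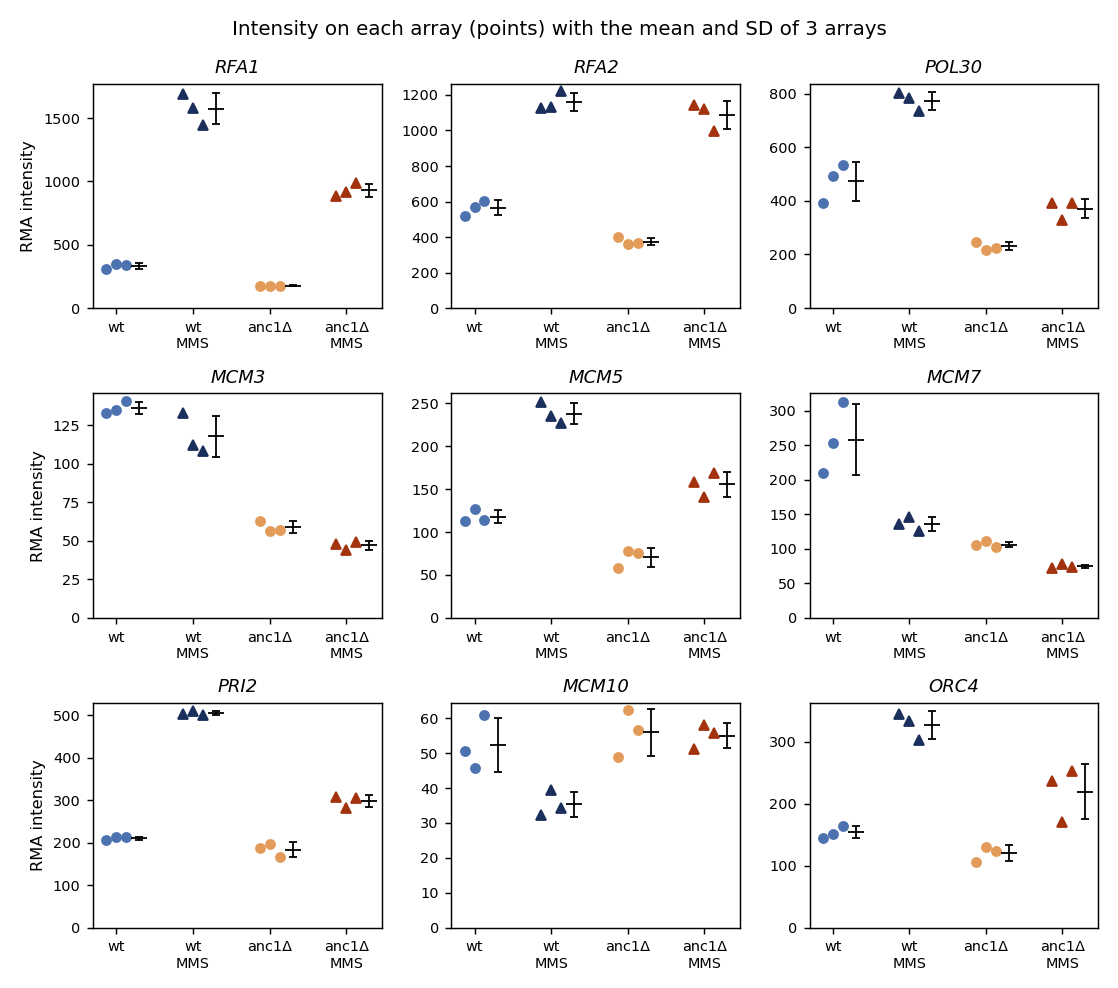
RMA intensity of 9 replication genes on each array (points) by group, with the mean and SD of the 3 arrays beside them; the vertical axes start at 0 and differ between panels. RFA1, RFA2, POL30, MCM5, PRI2 and ORC4 are higher with MMS in both strains, MCM3 and MCM7 are lower in anc1Δ in both conditions, and MCM10 is low in treated wildtype.

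MCM10, which is needed to activate the loaded helicase and is not a subunit of the ring, was the one member called higher in anc1Δ. It was read at 50.7, 45.6 and 60.8 in untreated wildtype, 32.4, 39.3 and 34.4 in treated wildtype, 48.9, 62.4 and 56.5 in untreated anc1Δ and 51.1, 58.1 and 55.8 in treated anc1Δ. The treated wildtype arrays lay below all 9 others, which overlapped one another. With MMS it was higher in anc1Δ by 0.64 ± 0.13 (adjusted p = 0.000896), a call that was lost without replicate 1 of treated wildtype (0.64 became 0.58) and after a further quantile normalization. The wildtype response of -0.56 and the difference in response of 0.54 (95% interval 0.15 to 0.93, adjusted p = 0.0378) passed the adjusted p and not the fold limit. CDC45, which joins the ring to complete the helicase, rose with MMS in both strains, from 82.5, 97.3 and 131 to 195, 187 and 173 and from 69.7, 73.0 and 65.7 to 170.4, 139.7 and 156. No treated array overlapped an untreated one of its strain. Those rises were 0.86 and 1.16, with a difference between them of 0.30 (95% interval -0.14 to 0.74).

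GINS, the other partner of the helicase, has 4 subunits, of which SLD5 alone was called lower in anc1Δ. SLD5 was 89.6, 104 and 109 in untreated wildtype and 53.9, 58.0 and 57.1 in untreated anc1Δ, without overlap, a change of -0.84 ± 0.11 (adjusted p = 0.000802), and differed by -0.73 with MMS. PSF1, PSF2 and PSF3 changed by -0.39, -0.49 and -0.42, past the adjusted p in each case and under 1.5-fold. With MMS in both strains these 3 differed by -0.55, -0.57 and -0.48, again past the adjusted p and under 1.5-fold. PSF1 and PSF2 then passed both thresholds when certain single arrays were left out. With MMS, PSF1 rose by 0.63 in wildtype, a call lost without replicate 1 of untreated wildtype (0.58) or of treated wildtype (0.56), and changed by 0.46 in anc1Δ. PSF2 changed by 0.52 and 0.44, and the responses of PSF3 (0.06 and 0.00) and SLD5 (-0.20 and -0.10) were not called.

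Polymerase alpha-primase makes the primers of both strands. PRI2, the large subunit of primase, had the second largest rise in wildtype, from 207, 212 and 213 to 502, 511 and 502, and went from 189, 198 and 165 to 307, 283 and 306 in anc1Δ. Treated and untreated arrays did not overlap in either strain, and the treated anc1Δ arrays lay between untreated and treated wildtype. The rises were 1.26 and 0.70, and the difference between them, -0.56 (95% interval -0.83 to -0.29, adjusted p = 0.00521), passed the adjusted p and stood just under 1.5-fold. Without treatment PRI2 changed by -0.20 between the strains, which was not called, and with MMS by -0.76, which was. PRI1, the catalytic primase subunit, was called in no comparison, with responses of 0.37 and 0.26. POL12, the B subunit, went from 121, 159.7 and 188 to 335, 309 and 309 in wildtype and from 92.7, 114 and 96.7 to 166, 147 and 168 in anc1Δ. It rose by 1.05 and 0.67 and was lower in anc1Δ, with differences of -0.61 without treatment and -0.99 with it. The untreated difference of POL12 had an adjusted p of 0.0222 and was lost without replicate 2 or 3 of wildtype or replicate 1 or 3 of anc1Δ (adjusted p between 0.0538 and 0.0772). POL1, the catalytic subunit, responded by 0.22 and 0.06, neither called, and was lower in treated anc1Δ (-0.67), a call lost on centring (-0.54).

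Of the leading and lagging strand polymerases, neither catalytic subunit was called in any comparison. POL2, of polymerase epsilon, was 241, 273 and 277 in untreated wildtype, 276, 269 and 259 in treated wildtype, 247, 239.9 and 282 in untreated anc1Δ and 264, 225 and 213 in treated anc1Δ, and the groups overlapped. Its 5 comparisons lay between -0.20 and 0.03. The arrays hold 8 further probe sets annotated to POL2, all dimmer, at the 2.16 to 36.4 percentiles of intensity. Of these 8, 4 were called lower with MMS in wildtype, where the changes of the 8 ran from -1.12 to -0.19. Another call was 1 probe set higher in treated anc1Δ than in treated wildtype (0.61), and 1 was called higher in the difference in response (0.89). The probe sets of POL2 thus disagreed. POL3, the catalytic subunit of polymerase delta, was dim, at 28.2 ± 2.14 in untreated wildtype, and none of its comparisons was called (-0.05 and -0.33 between the strains, 0.29 and 0.00 for MMS). The accessory subunits behaved differently. DPB2, the essential second subunit of polymerase epsilon, was 95.4, 111 and 128 in untreated wildtype and 59.2, 67.8 and 66.1 in untreated anc1Δ, a difference of -0.79, and differed by -0.82 with MMS, and was not called for MMS (0.32 and 0.29). POL31, the second subunit of polymerase delta, went from 63.8, 52.9 and 62.2 to 115, 103 and 99.0 in wildtype and from 33.9, 37.0 and 41.5 to 63.7, 53.6 and 67.7 in anc1Δ, rises of 0.83 and 0.72, and was lower in anc1Δ in both conditions (-0.67 and -0.78). POL32, the third subunit, was near the floor at 21.0 ± 2.70 in untreated wildtype and 13.6 ± 1.07 in untreated anc1Δ, and its difference of -0.62 was lost without replicate 3 of wildtype (-0.52) or replicate 1 of anc1Δ (-0.56).

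POL30 encodes PCNA, the sliding clamp. Its intensity was 392.2, 493 and 534 in untreated wildtype and 247, 218 and 226 in untreated anc1Δ, and with MMS it was 802, 783 and 736 in wildtype and 391, 330.0 and 392.2 in anc1Δ. The 4 groups did not overlap, though the highest treated anc1Δ array and the lowest untreated wildtype array lay close together at 392.16 and 392.20. The strain differences were -1.03 ± 0.14 and -1.06 ± 0.12 (adjusted p = 0.000747 and 1.01e-05), about 2.04-fold and 2.09-fold. MMS raised POL30 by 0.72 in wildtype and 0.69 in anc1Δ, with a difference of -0.03 between the responses (95% interval -0.40 to 0.33).

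Replication factor C, the 5-subunit clamp loader, had few calls. RFC4 was the one subunit called for MMS, at 0.72 in wildtype and 0.67 in anc1Δ, from 52.0 ± 8.52 to 85.2 ± 6.66 and from 46.4 ± 3.46 to 74.4 ± 11.6. Leaving out replicate 1 of untreated wildtype took the first of these to 0.58 and leaving out replicate 3 of treated anc1Δ took the second to 0.57, both under the limit. RFC3 was called lower in untreated anc1Δ (-0.61), which fell short of 1.5-fold without replicate 3 of wildtype (-0.49) or replicate 1 of anc1Δ (-0.58), and its responses of 0.18 and 0.56 were not called. RFC1, the large subunit, RFC2 and RFC5 were called in no comparison, with MMS responses of -0.29, -0.25 and -0.28 in wildtype and 0.04, -0.34 and -0.17 in anc1Δ. The 4 smaller subunits also serve other clamp loaders.

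RPA, the heterotrimer that coats single-stranded DNA, held the largest response among the members. RFA1, the large subunit, was 308, 351 and 342 in untreated wildtype and 1693, 1579 and 1448 with MMS, and 172, 178 and 176 in untreated anc1Δ and 886, 915 and 987 with MMS. The 4 groups did not overlap, and treated anc1Δ lay between untreated and treated wildtype. The rises were 2.24 ± 0.09 in wildtype and 2.40 ± 0.09 in anc1Δ (adjusted p = 4.59e-10 and 7.87e-10), which is 4.71-fold and 5.28-fold. The difference between them was 0.16 (95% interval -0.11 to 0.44), and the strain differences were -0.92 untreated and -0.76 with MMS, both called. RFA2, the middle subunit, went from 519, 569 and 603 to 1129, 1134 and 1221 in wildtype and from 398, 363 and 364 to 1141, 1123 and 997 in anc1Δ. Its treated levels overlapped between the strains while its untreated levels did not. It rose by 1.04 and 1.53, the difference of 0.49 (95% interval 0.21 to 0.77) passed the adjusted p (0.0142) and not the fold limit, and the strain difference was -0.59 without treatment and -0.10 with it. The untreated call of RFA2 sat on the fold limit and was lost without replicate 2 or 3 of wildtype or replicate 2 or 3 of anc1Δ (-0.54 to -0.58). RFA3, the small subunit, changed by 0.50 in wildtype and rose by 0.69 in anc1Δ, from 449.9, 563 and 314 to 645, 558 and 629 and from 387, 329.6 and 405 to 604, 551 and 649. Replicates 2 and 3 of untreated wildtype differed widely in this gene, and the highest untreated wildtype array overlapped the treated ones, while the anc1Δ groups did not overlap.

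Of the enzymes that finish Okazaki fragments, RAD27, the flap nuclease, went from 380.0, 455 and 517 to 838, 819 and 795 in wildtype and from 328, 311 and 312 to 765, 694 and 755 in anc1Δ, without overlap in either strain. These were rises of 0.87 and 1.22 (adjusted p = 9.11e-06 and 1.05e-06), and the strain differences of -0.50 and -0.15 were not called. CDC9, DNA ligase I, was lower in untreated anc1Δ (-0.62), changed by 0.44 in wildtype with MMS and rose by 0.62 in anc1Δ, the last of which was lost without replicate 1 of treated anc1Δ and after a further quantile normalization (0.57 in each). Its untreated call was lost on centring (-0.58).

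The members lie on 14 of the 16 nuclear chromosomes, and 2 pairs are direct neighbours in the RefSeq annotation (assembly R64), POL2 (YNL262W) with ORC5 (YNL261W) and RFC5 (YBR087W) with POL30 (YBR088C). Neighbours were not called alike. ORC5 changed by -0.78 in untreated anc1Δ where POL2 changed by -0.04, and POL30 rose by 0.72 with MMS in wildtype where RFC5 changed by -0.28.

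A further 31 replication genes outside the core machinery were all measured. In untreated anc1Δ 5 of them fell (16.1%, against 12.4% of all genes) and 0 rose (11.1%), with a median of -0.29 against -0.10. With MMS in both strains 5 were lower (16.1% against 18.4%) and 1 higher (3.23% against 10.9%). Those with the smallest p in the untreated comparison were RRM3, a helicase that helps forks past protein blocks (-0.82), RNH201, the catalytic subunit of RNase H2 (-0.78), and RNH70, another ribonuclease (-0.60). MMS raised 14 (45.2%) and lowered 4 (12.9%) in wildtype, against 27.7% and 20.8% of all genes, and raised 12 (38.7%) and lowered 4 (12.9%) in anc1Δ, against 16.0% and 15.7%. The medians were 0.56 and 0.49, beside medians of 0.08 and -0.01 over all genes. In wildtype the smallest p belonged to DNA2, a nuclease and helicase for Okazaki fragments (1.64), SLD7 (-1.07), a partner of the firing factor Sld3, RNH203 of RNase H2 (-1.39) and SLD2, a factor for origin firing (1.65). In anc1Δ it belonged to CAC2 (1.38) and RLF2 (1.63), subunits of the histone chaperone CAF-1, MRC1, which carries the checkpoint signal at the fork (1.38), and RNH203 (-1.05). All 4 chromatin assembly genes, which place histones on new DNA, rose in both strains. DNA2 was the 1 gene of the 31 whose difference in response was called (-0.79).

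Lists of genes that mark stages of the cell cycle were counted in the same comparisons. Of 14 measured G1/S genes outside the machinery, 6 fell in untreated anc1Δ (42.9%, against 12.4% of all genes) and 0 rose (median -0.52), with SWE1, a mitotic inhibitor kinase, at -0.78, the G1 cyclin gene CLN1 at -0.60, the S-phase cyclin gene CLB5 at -0.98 and RNR1, for the large subunit of ribonucleotide reductase, at -0.88. With MMS 3 of the 14 rose (21.4%) and 4 fell (28.6%) in wildtype, against 27.7% and 20.8% of all genes, and 3 rose (21.4%) and 1 fell (7.14%) in anc1Δ, against 16.0% and 15.7%. Between the treated strains 9 of the 14 were lower in anc1Δ (64.3%) and 1 higher (7.14%), against 18.4% and 10.9% of all genes. Their difference in response was called higher for 2 and lower for 3 (9.58% and 14.2% of all genes). Of 6 G1/S regulators, 2 were called lower in untreated anc1Δ (12.4% of all genes), and 5 were lower on the adjusted p alone (27.5% of all genes). The 2 called were SWI6, a subunit of MBF and SBF, and NRM1, a repressor of MBF targets (-0.60 and -0.995). MBP1, the DNA-binding subunit of MBF, was the 1 regulator above 0, at 0.09. Between the treated strains 3 of the 6 were lower in anc1Δ (18.4% of all genes). With MMS 1 of the 6 rose and 3 fell in wildtype (27.7% and 20.8% of all genes). In anc1Δ 0 rose and 2 fell with MMS (16.0% and 15.7%). The difference in response of the 6 was called higher for 2 and lower for 1 (9.58% and 14.2%). Of 9 measured G2/M genes, 7 fell in untreated anc1Δ (median -1.20; 12.4% of all genes fell), 7 fell and 1 rose with MMS in wildtype (median -1.66; 20.8% and 27.7%), and 3 fell with MMS in anc1Δ (median -0.43; 15.7%). Between the treated strains 2 of these 9 were lower in anc1Δ (18.4% of all genes). Their difference in response was called higher for 7 and lower for 1 (9.58% and 14.2% of all genes). Of 8 M/G1 genes 2 rose and 0 fell in untreated anc1Δ (median 0.01; 11.1% and 12.4% of all genes). Between the treated strains 1 of these 8 was higher and 2 were lower in anc1Δ (10.9% and 18.4%). With MMS 1 of the 8 rose and 4 fell in wildtype (27.7% and 20.8%), and 0 rose and 1 fell in anc1Δ (16.0% and 15.7%). The difference in response of the 8 was called higher for 2 and lower for 1 (9.58% and 14.2%). Only 2 of 8 histone genes had a probe set of their own, and both fell with MMS in both strains, with changes of -3.17 and -3.10 for HTB2. The share of cells in each stage of the cycle is not given by these arrays, and its part in the values of the replication genes was not tested. By flow cytometry the paper reported a longer G1 in untreated anc1Δ and an S-phase arrest with MMS in both strains. It does not tie those profiles to the cultures of these arrays.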

How the data were processed

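The authors labelled total RNA, hybridized it to Affymetrix YG-S98 arrays and normalized the data by RMA, and the methods do not say whether all 12 arrays were normalized in 1 run. The deposited values are RMA intensity on a linear scale (values of 1 table for all 12 arrays). From these, log2 intensity was computed here, 60 control probe sets were left out, and 9275 probe sets were fitted with limma (version 3.58.1 in R 4.3.3). The untreated strain comparison used the 6 untreated arrays, as the study's methods compare them, and the others used all 12 in 1 model of 4 groups. Calls needed a Benjamini-Hochberg adjusted p under 0.05 over all probe sets and at least 1.5-fold, the study's limits. An exact permutation test of 3 against 3 arrays cannot go below p = 0.1 and was not used for calls. Each gene stands for its brightest probe set naming it alone. All 39 members are named. Genes of other lists were named by the smallest p in the comparison described, at most 4 of a list. Marker genes of the genotype and mating type, and MBP1 among the G1/S regulators, were named besides. Members, lists and tests were chosen with earlier results of these data known. The procedure was tested on simulated data. The study's local pooled error (LPE) test was rewritten here and run as an alternative, beside other scalings, filters and limits, each array left out, and the replicate number as a block. Same-numbered untreated and treated anc1Δ arrays deviated together (r = 0.373, 0.240 and 0.167), and those of wildtype less evenly (r = 0.077, -0.125 and 0.249). Whether the numbers pair the cultures is not stated. The fits reported here did not pair arrays, and the replicate number entered only as a block in alternatives. Per the methods 3 independent colonies were grown for each strain, which are not tied to treated or untreated arrays, so p-values measure the spread between these arrays, which may in part be technical. No sequence of these genes was used here, and a planned description of promoter motifs was not run.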

Additional observations from a re-analysis of the deposited data

Results flagged for a closer look

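For 3 of the 39 members the MMS response differed between the strains by the test of that difference (limma, adjusted p over all probe sets), although none of the differences reached 1.5-fold. MCM10 responded by -0.56 in wildtype and -0.02 in anc1Δ, a difference of 0.54 ± 0.18 (adjusted p = 0.0378). RFA2 rose by 1.04 and 1.53, a difference of 0.49 ± 0.13 (adjusted p = 0.0142). PRI2 rose by 1.26 and 0.70, a difference of -0.56 ± 0.12 (adjusted p = 0.00521). Over all genes 13.9% passed this adjusted p in the positive and 21.6% in the negative direction, against 5.13% and 2.56% of the members. Outlying arrays could not be tested for in groups of 3.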

How the results depend on the processing

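No called member changed direction under any alternative run. The replicate block, the choice of arrays fitted, the prior variance, the dim filter and the fold limits could not reverse one, since they leave each change as it was. Apart from a 2-fold limit, 50 of the 71 calls of single members kept both thresholds in every alternative and 21 lost one in at least 1. Of the 19 members lower in untreated anc1Δ, centring each array left 12 and a 2-fold limit 3, and leaving out 1 array gave 15 to 22 with medians of -0.63 to -0.49, the last without wildtype replicate 3, which read highest of its group in 28 of 39 members. For MMS in wildtype (15 higher, 1 lower, median 0.44), dropping the fold limit gave 23 and 4, a 2-fold limit 6 and 0, centring 2 lower and a median of 0.33, and leaving out 1 array 12 to 17 higher and 1 to 3 lower with medians of 0.38 to 0.48, the 3 without untreated replicate 2. For MMS in anc1Δ (17 and 0, median 0.46), a 2-fold limit gave 5 higher, no fold limit 4 lower, and omitting the dimmest 25% of probe sets a median of 0.55. Between treated strains (1 higher, 18 lower, median -0.55), a 2-fold limit left 0 and 2, a further quantile normalization 0 higher and 16 lower, centring 12 lower with a median of -0.43, and leaving out 1 array 0 to 1 higher. For the difference in response (0 and 0, median -0.03), no fold limit gave 2 higher and 1 lower, centring 1 higher (MCM10) with a median of 0.056, the further quantile normalization a median of 0.061, and leaving out 1 array 0 to 1 higher (MCM10), 0 to 1 lower (PRI2, without untreated anc1Δ replicate 3) and medians of -0.0715 to 0.0821, so this median has no settled sign. Causes of these changes were not tested. Centring moved the all-gene median of the wildtype response from 0.08 to -0.04 and that between treated strains from -0.18 to -0.05.

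With the replicate number as a block the counts were 0 higher and 19 lower for untreated anc1Δ, 15 and 1 for MMS in wildtype, 17 and 0 for MMS in anc1Δ, 1 and 18 between treated strains and 0 and 0 for the difference in response, as without it. A block on the 6 anc1Δ arrays alone, added after the data were seen, also gave 17 and 0. The LPE test gave 18 lower in untreated anc1Δ, 14 higher and 1 lower for MMS in wildtype, 17 higher in anc1Δ, and 1 higher and 18 lower between treated strains. Signal over background limits CDC6, POL3 and POL32, which were among the dimmest 25% of probe sets in at least 1 group.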
